A study of Homo sapiens with 6 samples.

Results

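The 50 genes described here encode the enzymes that build, elongate, desaturate, activate, store, release and oxidise fatty acids, with 2 nuclear receptors that control such genes. They were found by symbol among the 56638 gene symbols of an RNA-seq data set on HCT116, a human colorectal carcinoma cell line. The list was drawn up with earlier results of these data known. The data set compared 3 WT samples with 3 METTL3-KO samples, to ask how gene expression changes when METTL3, the catalytic subunit of the enzyme that writes N6-methyladenosine (m6A) on mRNA, is knocked out by CRISPR-Cas9. Both groups were untreated cells of passages 16 to 19 grown in McCoy's 5A medium with 10% fetal bovine serum. The study's methods describe the METTL3-KO cells as 1 monoclonal line made by lentiviral editing, and for such a line the knockout and the clone cannot be told apart. No source says that the replicates were separate cultures, so the p-values measure only the spread between these samples. The deposited tables name the groups NC and SiM3 and number the WT samples differently. SiM3 could be read as an siRNA against METTL3, and whether these libraries are from knockout or knockdown cells cannot be settled from the counts. The sample labels, which give a knockout, were followed here.

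By role, 18 of the 50 genes serve synthesis and 18 serve oxidation, and the other 14 activate, esterify, coat or release fatty acids or encode the receptors PPARA and PPARG. Cells make fatty acids in the cytosol. ACLY and ACSS2 supply acetyl-CoA, acetyl-CoA carboxylase makes malonyl-CoA from it, and FASN joins these units with NADPH that ME1 helps to provide, after which elongases lengthen and desaturases unsaturate the chain. Oxidation runs mainly, though not only, in mitochondria, where carnitine palmitoyltransferases carry acyl chains in, dehydrogenases, hydratases and thiolases shorten them, and the ETF proteins pass on the electrons. Malonyl-CoA blocks CPT1, the entry enzyme, and so links both routes.

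METTL3 was at 30.6, 30.2 and 29.2 CPM (read counts scaled to library size with TMM normalization) in the WT samples and at 7.26, 7.69 and 6.89 in the METTL3-KO samples. Its log2 fold change was -2.04 (adjusted p = 1.59e-07, SE 0.0906, Benjamini-Hochberg adjusted over all tested genes in edgeR's quasi-likelihood test, as are all p-values below). Depth ran from 20936091 to 30142144 counts on genes per sample. Replicate 3 stood apart in both groups: the chi-square per gene against the other replicates was 23.0 to 23.1 in WT and 8.32 to 11.2 in METTL3-KO, where the remaining pair of each group gave 2.58 and 2.34. All 6 epithelial marker genes were detected, with a summed level of 5598 to 6991 CPM in WT and 7922 to 8907 CPM in METTL3-KO. Of 5 adipocyte markers, ADIPOQ and LEP were at 0 and the summed level was 3.72 to 4.92 CPM in WT and 8.39 to 9.10 CPM in METTL3-KO. The 5 leukocyte markers summed to 1013 to 1052 CPM in WT and 676 to 733 CPM in METTL3-KO, nearly all of it LYZ. The fibroblast, endothelial and hepatocyte lists each stayed below 8 CPM, with COL1A2, COL3A1, PECAM1, KDR and ALB at 0. The part of these marker levels in the results below was not tested. All samples are of the cell line HCT116, and in bulk counts fewer expressing cells and less RNA per cell cannot be told apart. Exons of TECR, ACSL5, DGAT1, ACADVL, ACADM and ACAA1 overlap those of other counted genes by 49 to 1403 bases, so part of their reads was left out of the counts or could come from the neighbor.

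Of the 50 genes, 48 passed the filter on low counts, 11 were higher and 7 were lower in the METTL3-KO group with an adjusted p below 0.05. Over all 22452 genes tested, 13.3% were higher and 13.2% lower, 26.5% in either direction, against 37.5% of the 48. All 18 called genes were among the 45 with a mean of at least 1 CPM, and over all genes at that level 38.2% were called, so the overall share of calls was near the background of expressed genes. The WT and METTL3-KO samples did not overlap for 25 of the 48, against 40.9% of all genes tested. The median log2 fold change was -0.01 for the 48 and -0.02 for all genes. The calls were unevenly placed among the roles, as the plot of log2 fold changes shows, and no test of that placement was made.

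**Figure D1:**
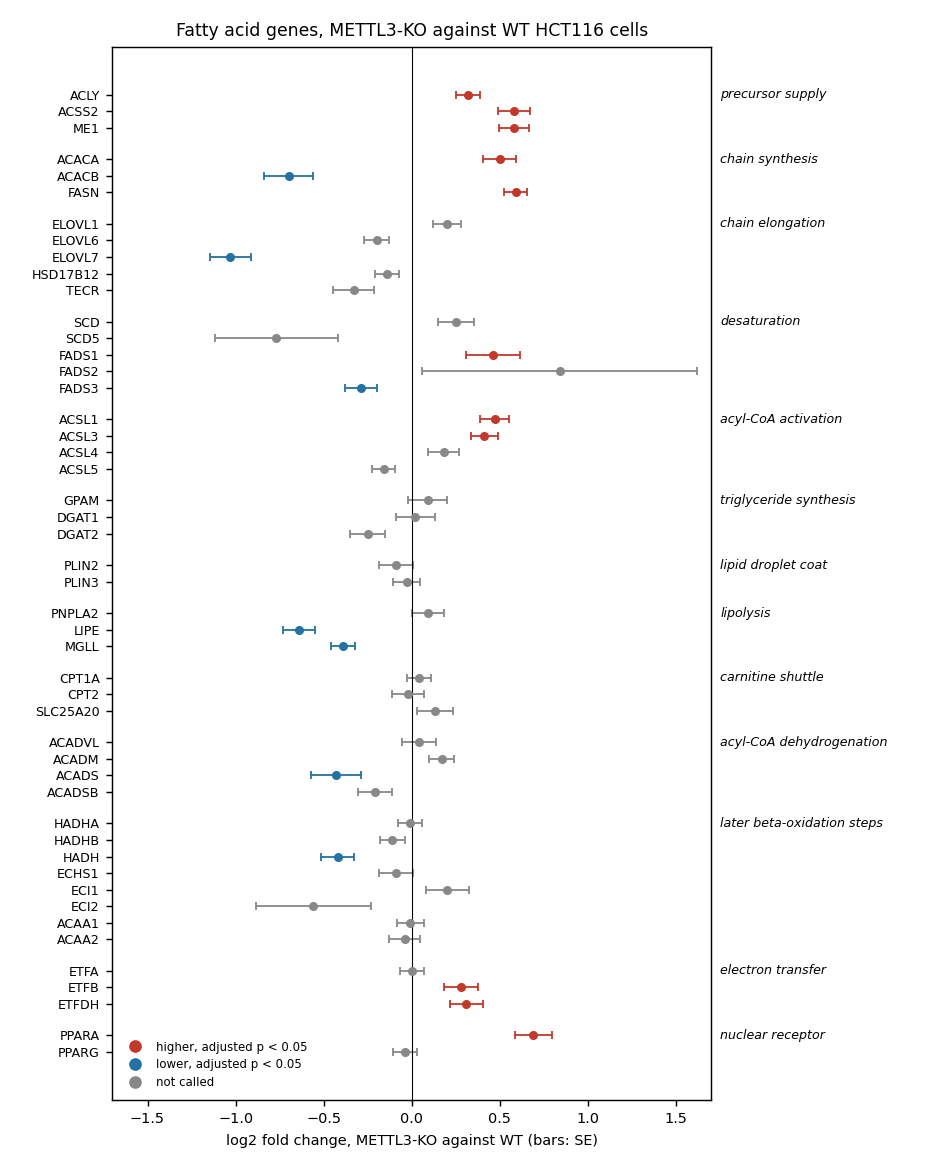
Log2 fold changes of the 48 tested genes, METTL3-KO against WT, on the horizontal axis, with SE bars, ordered by role; red marks genes higher and blue genes lower at an adjusted p under 0.05, and gray those not called. All 3 precursor supply genes lie on the higher side, ELOVL7 at -1.03 lies farthest to the left, and most oxidation genes lie near 0.

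All 3 genes that supply acetyl-CoA or NADPH for synthesis, grouped here as precursor supply, were higher in METTL3-KO cells. Of all genes tested 13.3% were higher, and of those with at least 1 CPM 38.2% were called in either direction. ACLY, which cleaves citrate to acetyl-CoA in the cytosol, was at 256, 259 and 275 CPM in WT and at 337, 331 and 318 CPM in METTL3-KO. The 2 groups did not overlap, and the log2 fold change was 0.32 (adjusted p = 0.00403, SE 0.0671). ACSS2, which makes acetyl-CoA from acetate, was at 23.1, 21.7 and 20.9 CPM in WT and at 30.5, 36.2 and 31.6 CPM in METTL3-KO. Its samples were also apart, with a log2 fold change of 0.58 (adjusted p = 0.000623, SE 0.0913). ME1, the cytosolic malic enzyme, was at 34.7, 35.0 and 32.1 CPM in WT and at 49.3, 47.2 and 55.6 CPM in METTL3-KO. Every METTL3-KO sample was above every WT sample, and its log2 fold change was 0.58 (adjusted p = 0.000403, SE 0.0855).

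FASN, the synthase that assembles palmitate, was at 268, 273 and 278 CPM in WT cells and at 422, 416 and 398 CPM in METTL3-KO cells. That was 273 ± 4.95 CPM against 412 ± 12.5 CPM (SD, n = 3), a fold of 1.51 and a log2 fold change of 0.59 (adjusted p = 5.15e-05, SE 0.0652), the smallest p among the genes that were higher. The gene lies at chr17:80036214-80056170 on the minus strand of GRCh37, the build of the authors' mapping. It remained called without each sample in turn, with adjusted p-values up to 0.00116.

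The 2 acetyl-CoA carboxylases moved in opposite directions. ACACA, the cytosolic form that feeds synthesis, was at 250, 256 and 304 CPM in WT and at 414, 387 and 344 CPM in METTL3-KO, with WT replicate 3 the highest of its group and METTL3-KO replicate 3 the lowest. The groups were still apart, and the log2 fold change was 0.50 (adjusted p = 0.0019, SE 0.0934). ACACB, the form at the mitochondrial outer membrane whose malonyl-CoA acts on CPT1, was at 6.77, 5.97 and 7.60 CPM in WT and at 3.75, 4.64 and 4.21 CPM in METTL3-KO. No METTL3-KO sample reached the lowest WT sample, and the log2 fold change was -0.70 (adjusted p = 0.00299, SE 0.14). Per transcript length, ACACB was the minor form, at 0.724 ± 0.0867 FPKM in WT against 27.0 ± 2.96 FPKM for ACACA (SD, n = 3).

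The sequences before the transcription starts are shown for this pair because the 2 genes moved in opposite directions, and for ACSL1 and PNPLA2 because they are the only genes, of the 43 in the set with a window to search, that held a sterol regulatory element. They are the 250 bases before 1 start of each gene in the RefSeq table for GRCh38.p14, a later build than that of the counts. For ACACA and ACACB this is the most upstream start in the table, and for ACSL1 and PNPLA2 the start whose window held the element. The table has 5 starts for ACSL1, and a window further upstream than the one shown held 6 GC boxes and no sterol regulatory element. Capitals mark TCACNCCAC (sterol regulatory element), the GC box GGGCGG and the letters CCAAT on either strand, with overlapping matches joined.
ACACA, chr17:37406837-37407086, minus strand: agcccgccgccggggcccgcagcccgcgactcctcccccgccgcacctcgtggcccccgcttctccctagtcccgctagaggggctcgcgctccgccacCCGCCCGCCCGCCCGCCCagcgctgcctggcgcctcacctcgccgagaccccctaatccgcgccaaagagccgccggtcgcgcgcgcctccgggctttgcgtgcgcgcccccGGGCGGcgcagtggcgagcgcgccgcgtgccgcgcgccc
ACACB, chr12:109116337-109116586, plus strand: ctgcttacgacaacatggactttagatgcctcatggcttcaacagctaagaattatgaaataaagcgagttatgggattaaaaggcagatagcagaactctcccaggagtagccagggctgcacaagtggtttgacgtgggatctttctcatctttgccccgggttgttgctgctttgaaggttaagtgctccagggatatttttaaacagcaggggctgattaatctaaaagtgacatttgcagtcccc
ACSL1, chr4:184805554-184805803, minus strand: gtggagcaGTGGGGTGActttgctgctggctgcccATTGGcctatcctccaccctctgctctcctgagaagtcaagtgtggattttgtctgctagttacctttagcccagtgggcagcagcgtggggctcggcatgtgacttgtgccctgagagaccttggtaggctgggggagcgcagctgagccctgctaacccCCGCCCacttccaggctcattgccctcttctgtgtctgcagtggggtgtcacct
PNPLA2, chr11:818664-818913, plus strand: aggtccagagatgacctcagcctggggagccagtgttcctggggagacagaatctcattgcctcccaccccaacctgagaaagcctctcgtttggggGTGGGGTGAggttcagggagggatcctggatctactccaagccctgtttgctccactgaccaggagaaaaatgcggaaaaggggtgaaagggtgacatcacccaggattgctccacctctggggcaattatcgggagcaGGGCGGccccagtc

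The ACACA window held 5 GC boxes and the ACACB window none of the 3 motifs, while the other ACACB start in the table, which lies downstream, held 3 GC boxes and 2 CCAAT boxes. Of the 50 genes, 43 had at least 1 window in the table, 66 windows in all, and ACAA1, DGAT1, DGAT2, ETFDH, FASN, HSD17B12 and MGLL had none. TCACNCCAC was in the windows of 2 of the 43 genes, in 3.03% of their windows and 0.883% of all 35116 windows. In ACSL1, which was higher in METTL3-KO cells, the match began 242 bases before the start, and in PNPLA2, which was not called, 153 bases before it, both on the opposite strand. GGGCGG was in 69.7% of the windows of these genes and 42.6% of all windows, which were not restricted to expressed genes. It was in 9 of 9 higher, 6 of 6 lower and 22 of 26 uncalled genes. CCAAT was in 36.4% against 32.0%, and the E-box CACGTG, in 3 of the 43 genes, was in 4.55% against 6.34%. These matches are letters in a window and show neither binding nor its absence.

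In the elongation cycle, which adds carbons to chains at the endoplasmic reticulum, none of the genes tested was higher and ELOVL7 was lower. ELOVL7 was at 22.1, 21.1 and 25.9 CPM in WT cells and at 10.1, 12.9 and 11 CPM in METTL3-KO cells. The highest METTL3-KO sample was far below the lowest WT sample, and the log2 fold change of -1.03 (adjusted p = 6.51e-05, SE 0.117) was the largest in size among the called genes of the set. It lies at chr5:60047618-60140101 on the minus strand (GRCh37). Of the other members of the cycle, ELOVL1, ELOVL6, HSD17B12 and TECR were not called, with log2 fold changes from -0.33 to 0.20. Without WT replicate 3, ELOVL6 (-0.22, adjusted p = 0.0166) and TECR (-0.43, adjusted p = 0.00101) passed, and without METTL3-KO replicate 3 TECR did (-0.43, adjusted p = 0.0229). After a correction of the samples for transcript length and GC content, ELOVL1 was called higher (0.22, adjusted p = 0.00308). The same correction called ELOVL6 (-0.21, adjusted p = 0.0494) and TECR (-0.30, adjusted p = 0.00182) lower. The uncalled genes of the cycle are named because so few remained, a choice made after their values were seen. The same holds for the other genes below that were not called and are not in the naming rule. ELOVL4 had 0 counts in every sample and ELOVL5 0 or 1, so neither was tested. Whether reads of ELOVL5 were lost in the authors' counting was not tested, so its counts do not show that the gene is silent. The genes PTPLA, PTPLB, PTPLAD1 and PTPLAD2 encode the dehydratases of this cycle, or relatives of them, and come from a list of related genes. PTPLA (log2 fold change -0.64, adjusted p = 0.00327, SE 0.13) and PTPLB (-0.50, adjusted p = 0.00405, SE 0.106) were lower, as was PTPLAD1 (-0.27, adjusted p = 0.0134, SE 0.0703). PTPLAD1 passed in 3 of the 6 fits that each left out 1 sample, with adjusted p-values up to 0.0817. The same list holds 2 more elongases, ELOVL2, which was not tested, and ELOVL3, which was not called (log2 fold change -0.80, adjusted p = 0.0746, SE 0.307). With these 6 genes, 10 genes of the cycle were tested. Without the correction for length and GC, 4 were lower and 0 higher. Of all tested genes 13.2% were lower, and of those with at least 1 CPM 38.2% were called in either direction. The genes of the cycle were grouped after values had been seen, and no test was made of the group.

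Of the 5 desaturases, FADS1 was higher, FADS3 was lower and 3 were not called, where 38.2% of all genes with at least 1 CPM were called. SCD, the delta-9 desaturase that makes oleate, was at 245, 220 and 278 CPM in WT and at 314, 317 and 255 CPM in METTL3-KO. The groups overlapped through replicate 3 of both, and the log2 fold change of 0.25 (adjusted p = 0.0941, SE 0.103) did not pass. Without WT replicate 3 SCD reached 0.35 (adjusted p = 0.00367), without METTL3-KO replicate 3 also 0.35 (adjusted p = 0.026), and without both 0.44 (adjusted p = 7.01e-13). The last fit had only replicates 1 and 2 of each group, and 44.1% of all genes tested passed in it. After the correction for length and GC content SCD was at 0.22 (adjusted p = 0.0209). FADS1, the delta-5 desaturase of polyunsaturated chains, was at 3.06, 2.79 and 2.77 CPM in WT and at 4.44, 3.82 and 3.53 CPM in METTL3-KO. The samples did not overlap (log2 fold change 0.46, adjusted p = 0.044, SE 0.152), but the call held in only 1 of 6 fits without 1 sample, the one without METTL3-KO replicate 3, and the adjusted p reached 0.189 without METTL3-KO replicate 1. FADS1 and FADS2, the delta-6 desaturase, share 490 bases of exon on opposite strands, and the counting left out reads that overlapped more than 1 gene. FADS2 itself had 0 to 10 counts per sample.

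FADS3, a relative of these desaturases, was at 45.2, 43.8 and 38.0 CPM in WT and at 33.6, 32.8 and 37.3 CPM in METTL3-KO. Its groups were apart by less than 1 CPM at replicate 3, with a log2 fold change of -0.29 (adjusted p = 0.0313, SE 0.0907). The call was lost without WT replicate 1 or 2 or METTL3-KO replicate 1 or 2, with adjusted p-values up to 0.137. Without replicate 3 of both groups, where 44.1% of all genes tested passed, FADS3 was at -0.43 (adjusted p = 9.40e-08). After the correction for length and GC content it was at -0.27 (adjusted p = 0.00129). SCD5, the second delta-9 desaturase, had 9 to 26 counts per sample. The plot of levels per transcript length sets the members of each enzyme family side by side.

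**Figure D2:**
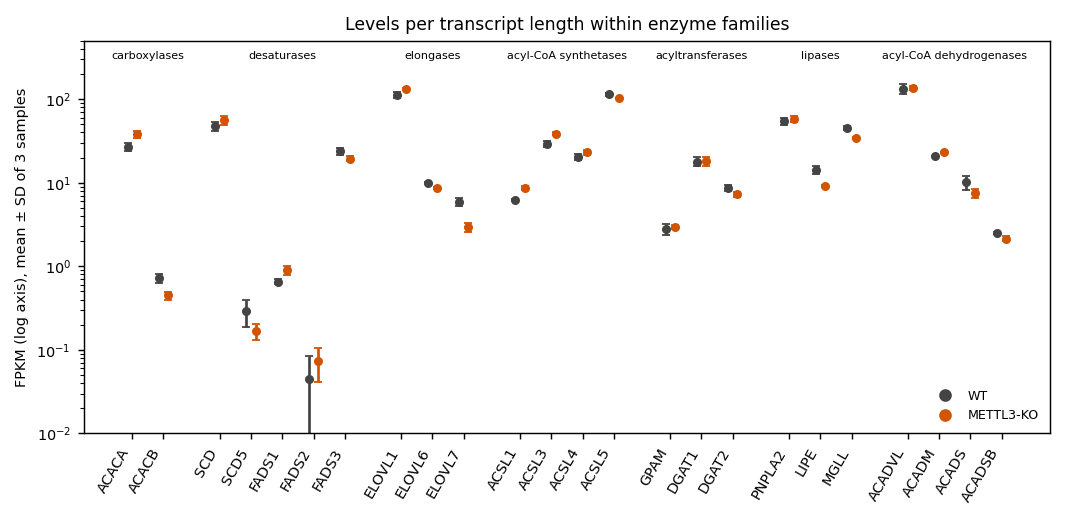
FPKM on a log axis for members of 7 enzyme families in WT and METTL3-KO cells; points are means and bars the SD of 3 samples, and the lower bar of FADS2 in WT runs off the axis. By these counts SCD was the most abundant desaturase and ACADVL the most abundant acyl-CoA dehydrogenase in both groups, and ACACB lay far below ACACA. The levels of FADS1 and FADS2 lack reads that overlapped more than 1 gene.

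Long-chain acyl-CoA synthetases activate fatty acids for every later use, and 2 of the 4 were higher. Over all genes tested 13.3% were higher, and of those with at least 1 CPM 38.2% were called in either direction. ACSL1 was at 22.9, 22.9 and 24 CPM in WT and at 32.4, 34.2 and 30.3 CPM in METTL3-KO. The groups were apart, with a log2 fold change of 0.47 (adjusted p = 0.00114, SE 0.0821). ACSL3, the form found on lipid droplets and the endoplasmic reticulum, was at 150, 162 and 176 CPM in WT and at 216, 222 and 208 CPM in METTL3-KO. It was also higher in every METTL3-KO sample than in any WT sample, by 0.41 (adjusted p = 0.00203, SE 0.0767). ACSL4 (log2 fold change 0.18, adjusted p = 0.159) and ACSL5 (-0.16, adjusted p = 0.0935) were not called, although per transcript length ACSL5 was the most abundant of the 4, at 114 ± 4.26 FPKM in WT and 102 ± 1.78 FPKM in METTL3-KO (SD, n = 3). Without WT replicate 3, ACSL4 passed with an adjusted p of 0.0154 and ACSL5 with 0.0478. Both also passed after the correction for length and GC content, ACSL4 with 0.0153 and ACSL5 with 0.0145.

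None of the 3 genes of triglyceride synthesis and 2 of the droplet coat in the set was called, and 2 of the 3 lipolysis genes were lower. Of all genes tested 13.2% were lower, and of those with at least 1 CPM 38.2% were called in either direction. DGAT1 and DGAT2 carry out the last step of triglyceride synthesis. DGAT1 was at 72.5, 67.2 and 56.4 CPM in WT and at 63.7, 59.6 and 75.6 CPM in METTL3-KO, and DGAT2 at 23.0, 19.0 and 20.8 CPM in WT and 16.3, 18.5 and 18.2 CPM in METTL3-KO. DGAT1 overlapped between the groups (log2 fold change 0.02, adjusted p = 0.915, SE 0.11), and DGAT2 did not overlap but did not pass (-0.25, adjusted p = 0.0843, SE 0.099). Without replicate 3 of both groups DGAT1 turned to -0.18 (adjusted p = 0.00452), in a fit where 44.1% of all genes tested passed. After the correction for length and GC content DGAT1 was at -0.01 (adjusted p = 0.966) and DGAT2 passed at -0.27 (adjusted p = 0.0357). The 3 others, GPAM, PLIN2 and PLIN3, had log2 fold changes from -0.09 to 0.09.

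Lipolysis removes the chains from triglyceride 1 at a time, through PNPLA2, then LIPE, then MGLL. PNPLA2 was at 142, 138 and 117 CPM in WT and at 132, 136 and 153 CPM in METTL3-KO, overlapping, with a log2 fold change of 0.09 (adjusted p = 0.519, SE 0.0907). LIPE, hormone-sensitive lipase, was at 58.3, 55.9 and 47.7 CPM in WT and at 34.5, 33.8 and 35.9 CPM in METTL3-KO. The groups were apart and the log2 fold change was -0.64 (adjusted p = 0.000261, SE 0.0885), while 500 bases of its exons overlap the antisense gene LIPE-AS1, and the kit did not mark strand. MGLL, monoglyceride lipase, was at 186, 186 and 202 CPM in WT and at 148, 150 and 142 CPM in METTL3-KO. It was lower in every METTL3-KO sample, by a log2 fold change of -0.39 (adjusted p = 0.00159, SE 0.0701).

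On the oxidation side, 2 of the 18 genes were higher and 2 were lower, and 14 were not called. The called share was 22.2%, against 26.5% of all genes tested and 38.2% of those with at least 1 CPM. CPT1A, the entry enzyme, was at 123, 125 and 129 CPM in WT and at 130, 131 and 128 CPM in METTL3-KO. The ranges overlapped, and the log2 fold change was 0.04 (adjusted p = 0.693, SE 0.0665). The 2 other genes of the carnitine shuttle, CPT2 and SLC25A20, were at -0.02 and 0.13 and were not called.

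Acyl-CoA dehydrogenases carry out the first step of each round, and each prefers a chain length. ACADVL, for very long chains, was at 305, 318 and 247 CPM in WT and at 287, 288 and 319 CPM in METTL3-KO. The groups overlapped (log2 fold change 0.04, adjusted p = 0.804, SE 0.0952), and the value was -0.12 (adjusted p = 0.0104) without replicate 3 of both groups. ACADS, for short chains, was the 1 called gene of the set whose groups overlapped, and it is named after its values were seen: 21.3, 20.1 and 14.8 CPM in WT against 13.1, 12.7 and 16.0 CPM in METTL3-KO. Its log2 fold change was -0.43 (adjusted p = 0.0385, SE 0.14). The call was lost without WT replicate 1 or 2 or METTL3-KO replicate 1 or 2, with adjusted p-values up to 0.155. Without replicate 3 of both groups, where 44.1% of all genes tested passed, ACADS was at -0.69 (adjusted p = 2.47e-09). After the correction for length and GC content it was at -0.40 (adjusted p = 0.00246). ACADM and ACADSB had log2 fold changes of 0.17 and -0.21 and were not called, although neither gene's groups overlapped. After the correction for length and GC content ACADM was called higher (0.21, adjusted p = 0.00527) and ACADSB was not called (-0.21, adjusted p = 0.108).

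Of the 8 genes of the later steps, only HADH was lower, against 13.2% of all genes tested. HADH, the dehydrogenase for short 3-hydroxyacyl chains, was at 76.9, 76.7 and 64.3 CPM in WT and at 53.2, 50 and 59.1 CPM in METTL3-KO. The groups did not overlap, with a log2 fold change of -0.42 (adjusted p = 0.00526, SE 0.0936), and all 6 fits without 1 sample kept the call, up to an adjusted p of 0.0421. HADHA, a subunit of the trifunctional protein for long chains, was at 209, 211 and 194 CPM in WT and at 204, 197 and 208 CPM in METTL3-KO. It overlapped, with a log2 fold change of -0.01 (adjusted p = 0.917, SE 0.0692). The 6 others had log2 fold changes from -0.56 to 0.20, the lowest in ECI2, which had 14 to 35 counts per sample. Whether reads of ECI2 were lost in the authors' counting was not tested. Without WT replicate 3, ECHS1 (-0.19, adjusted p = 0.0413) and ECI2 (-0.81, adjusted p = 0.0429) passed. After the correction for length and GC content ECI1 was called higher (0.22, adjusted p = 0.0241).

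The electron transfer genes ETFB and ETFDH were higher and ETFA was not called. Of all genes tested 13.3% were higher, and of those with at least 1 CPM 38.2% were called in either direction. ETFB was at 61.2, 60.3 and 49.0 CPM in WT and at 66.3, 67.2 and 73.9 CPM in METTL3-KO, and ETFDH, the enzyme that passes the electrons to ubiquinone, at 15.8, 14.9 and 16.5 CPM in WT and 20.1, 17.6 and 20.7 CPM in METTL3-KO. Neither gene's groups overlapped, with log2 fold changes of 0.28 (adjusted p = 0.046, SE 0.0949) and 0.31 (adjusted p = 0.0322, SE 0.0957). Each call was lost in 4 of the 6 fits without 1 sample. For ETFB these were the fits without METTL3-KO replicate 1, 2 or 3 or WT replicate 2, with adjusted p-values up to 0.138, and its log2 fold change was 0.13 (adjusted p = 0.0363) without replicate 3 of both groups. For ETFDH they were the fits without METTL3-KO replicate 1 or 3 or WT replicate 1 or 2, up to 0.113. ETFDH shares 1427 bases of exon with PPID on the other strand. ETFA was at -0.00 (adjusted p = 0.99, SE 0.07).

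PPARA and PPARG are fatty acid-sensing receptors, the first known for switching on oxidation genes and the second for adipocyte genes. PPARA was at 58.9, 59.2 and 74.8 CPM in WT and at 110, 109 and 91.9 CPM in METTL3-KO. Every METTL3-KO sample was above every WT sample, with replicate 3 of each group nearest the other group, and the log2 fold change was 0.69 (adjusted p = 0.000544, SE 0.107), the largest among the genes that were higher. PPARG was at 117, 117 and 113 CPM in WT and at 108, 114 and 117 CPM in METTL3-KO, which overlap, with a log2 fold change of -0.04 (adjusted p = 0.748, SE 0.069). The other regulators came from a list of 15, of which 5 were higher and 0 lower, a called share of 33.3% that was below the 38.2% of all genes with at least 1 CPM. The liver X receptor NR1H2 (log2 fold change 0.78, adjusted p = 9.50e-05, SE 0.0936), PPARD (0.51, adjusted p = 0.000249, SE 0.0698) and the coactivator PPARGC1B (0.67, adjusted p = 0.00314, SE 0.135) were among them. SREBF1, which encodes a factor that switches on synthesis genes, was at 122, 115 and 113 CPM in WT and at 125, 132 and 135 CPM in METTL3-KO. These did not overlap, but the log2 fold change of 0.16 (adjusted p = 0.123, SE 0.0706) did not pass, and without replicate 3 of both groups it was 0.11 (adjusted p = 0.0492).

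**Figure D3:**
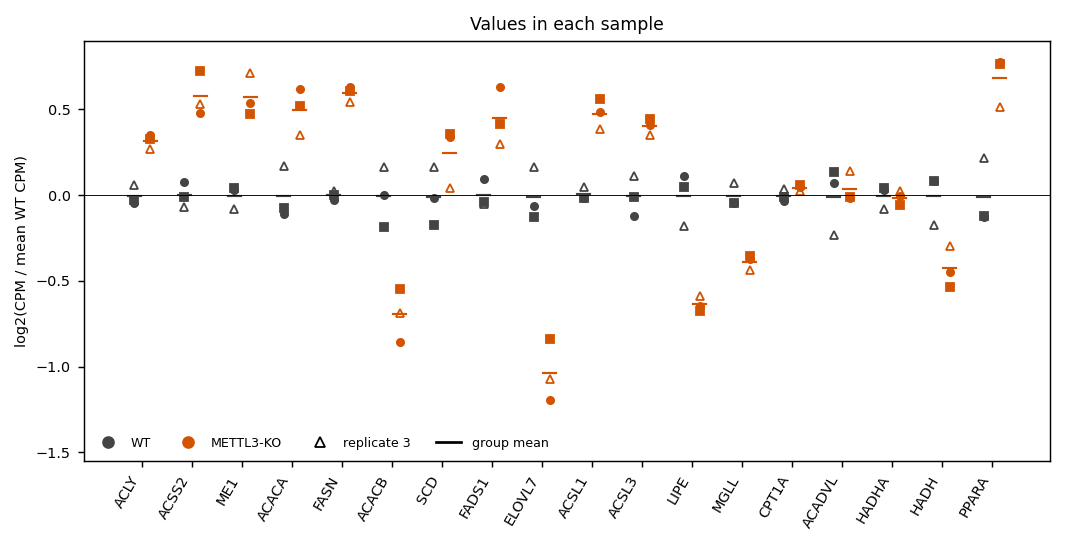
Log2 of each sample's CPM over the mean WT CPM for 18 genes, with WT in gray and METTL3-KO in orange, replicate 3 as open triangles and group means as lines. ACLY, ACSS2, ME1, ACACA and FASN lie above WT in all 3 METTL3-KO samples and ACACB, ELOVL7, LIPE and MGLL below, while SCD and ACADVL overlap through replicate 3.

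Set against each other, the synthesis genes held 6 higher and 3 lower of 16 tested, with a median log2 fold change of 0.23, and the oxidation genes 2 higher and 2 lower of 18, with a median of -0.01. The higher genes of synthesis were ACLY, ACSS2, ME1, ACACA, FASN and FADS1. The lower ones were ACACB, ELOVL7 and FADS3. As shares, 56.2% of the tested synthesis genes and 22.2% of the oxidation genes were called, against 26.5% of all genes tested and 38.2% of those with a mean of at least 1 CPM. These counts describe the 2 groups of genes, and the difference between them was not tested. Without replicate 3 of both groups, 19 rather than 7 of all the genes of the set were lower, 6 of them in synthesis and 8 in oxidation. Without WT replicate 3 alone, 12 of the set were lower, 5 in synthesis and 4 in oxidation. Over all genes tested, the called share was 44.1% without replicate 3 of both groups and 34.7% without WT replicate 3.

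Within each sample, the mean log2 CPM of the 14 synthesis genes with at least 1 CPM was compared with that of the 17 such oxidation genes. The difference, synthesis minus oxidation, was -0.148, -0.182 and 0.005 in WT and -0.014, 0.030 and -0.145 in METTL3-KO. Replicate 3 was the highest of the WT samples and the lowest of the METTL3-KO samples, and the groups overlapped. The means were -0.109 ± 0.100 in WT and -0.043 ± 0.091 in METTL3-KO (SD, n = 3), a difference of 0.07. This difference became 0.17 without replicate 3 of both groups and 0.04 after a correction of the samples for length and GC. Alone, the synthesis mean was 5.801 ± 0.022 in WT and 5.858 ± 0.012 in METTL3-KO, with no overlap, and the oxidation mean was 5.910 ± 0.097 and 5.901 ± 0.082.

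Both the synthesis and the oxidation genes had shifts in replicate 3, but in the synthesis genes the shifts went both ways: ACACA and SCD were highest of the WT samples and lowest of the METTL3-KO samples in replicate 3, and TECR and FADS3 the reverse. Relative to the other replicates of its group, the median log2 value of the oxidation genes was -0.21 in WT replicate 3 and 0.15 in METTL3-KO replicate 3, against -0.03 and -0.02 for the synthesis genes. The transcripts of the oxidation genes were shorter, with a median of 2184 bases (872 to 5848) against 4083 bases (1139 to 10007). The part of transcript length in this shift was not tested. After a correction of the samples for length and GC, all 18 calls were kept and 27 genes of the set were called, 16 higher and 11 lower, while calls over all tested genes went from 26.5% to 34.8%.

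**Figure D4:**
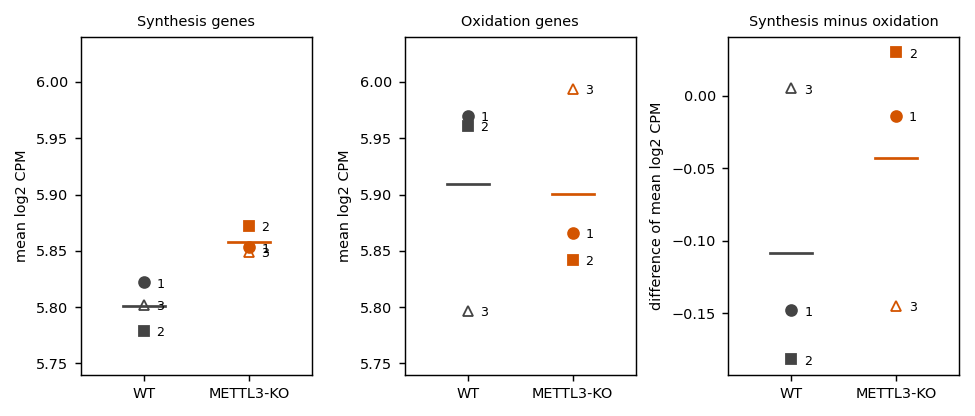
Mean log2 CPM of synthesis genes, of oxidation genes, and their difference in each sample, with the replicate number beside each point and group means as lines; the vertical axes do not start at 0. The synthesis means of the METTL3-KO samples lie above those of WT, and the oxidation means and the difference overlap, with replicate 3 apart in both groups.

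Further lists, drawn up by function, gave related genes of the same routes. Of 18 tested genes of cytosolic and mitochondrial synthesis, 2 were higher and 3 lower, or 27.8% called, with a median log2 fold change of -0.07. The carboxylase activator MID1IP1 was higher by 0.64 on the log2 scale (adjusted p = 0.000754, SE 0.104), and the 3 lower genes were PTPLA, PTPLB and PTPLAD1. Of 29 tested genes of mitochondrial and peroxisomal oxidation, 8 were higher and 3 lower, or 37.9% called, with a median log2 fold change of 0.08. The called share was 26.5% of all genes tested and 38.2% of those with a mean of at least 1 CPM. ACAD10, a member of the acyl-CoA dehydrogenase family, was higher by 0.56 (adjusted p = 0.000368, SE 0.0819) and the peroxisomal acyl-CoA binding protein ACBD5 by 0.43 (adjusted p = 0.00202, SE 0.0811). ACAD8, which acts in valine breakdown, was lower, with a log2 fold change of -0.49 (adjusted p = 0.000358, SE 0.0716).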

How the data were processed

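RNA-seq of 6 HCT116 samples, 3 WT and 3 METTL3-KO, was used, with groups from the sample labels. The authors aligned the read pairs to hg19 using TopHat (TopHat2 2.0.11 in the submitters' processing notes) on Ensembl GRCh37 genes and counted with HTSeq in union mode. Raw counts per gene symbol were deposited, and reads on more than 1 gene (7.95% to 8.77%) or aligned to more than 1 place were left out by the authors' counting. The strand setting is not given in the sources used here, and the TruSeq kit does not mark strand.

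Genes with at least 5 total counts in either group were tested with edgeR 4.0.16 (R 4.3.3, TMM, quasi-likelihood, two-sided), adjusted by Benjamini-Hochberg over 22452 genes at 0.05. The common biological coefficient of variation was 0.0907. The SE is the log2 fold change over the square root of F. FPKM divides CPM by the canonical transcript length of GENCODE on GRCh37, to which 35800 symbols matched. Counts per sample ran from 0 for ELOVL4 to 12731 for FASN, which with 3 samples a group sets the precision. The scripts were tested on simulated data with a biological coefficient of variation of 0.05, which is smaller than that of these samples.

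The genes and lists were chosen with earlier results of these data known. Named genes are the called ones with a mean of at least 1 CPM and no overlap of groups, 12 central members whatever their values, METTL3, SREBF1 and up to 3 genes of each related list. Alternatives were DESeq2 1.42.0, RLE, other filters, a replicate block, leaving out samples, and a correction for length and GC using splines (5 degrees of freedom, genes over a mean log2 CPM of 3).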

Additional observations from a re-analysis of the deposited data

How the results depend on the processing

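Of the 18 genes of the set called, 13 kept their call without each of the 6 samples in turn, and no called gene changed direction under any alternative. Same-numbered WT and METTL3-KO samples did not deviate alike from their group means, with correlations of -0.586, -0.39 and -0.784 over 10336 genes. WT replicate 3 deviated like METTL3-KO replicates 1 and 2 (0.657 and 0.505), and METTL3-KO replicate 3 like WT replicates 1 and 2 (0.719 and 0.632). Deviations within a group sum to 0, so these correlations are not independent of each other. With the replicate number as a block, 7 genes of the set were higher (main 11) and 7 lower became 5, with 0 oxidation genes higher and 1 lower, 14 of the related genes higher (main 24), and 1810 genes higher and 1719 lower over all genes. ACLY, FADS1, FADS3, ACADS, ETFB and ETFDH lost their calls under the block. The correction for length and GC content kept 18 of 18 calls and gave 11 lower genes in the set, 5 lower in synthesis and 4 higher in oxidation. With the block added to it 21 genes were called, 17 of them shared.

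Without replicate 3 of both groups, the set had 19 lower genes, 6 in synthesis and 8 in oxidation, the related lists 37 lower genes (main 17), and all genes 4555 higher and 4823 lower. The synthesis median was then 0.25, and the difference of synthesis minus oxidation 0.17, and DGAT1 (-0.18) and ACADVL (-0.12) reversed. The synthesis median was 0.21 under filterByExpr and with no filter beyond 1 count. Leaving out 1 sample at a time gave 8 to 12 higher and 5 to 12 lower genes in the set, the most lower (12) without WT replicate 3. The same fits gave 5 to 7 higher and 2 to 5 lower synthesis genes with a median of 0.20 to 0.27, 0 to 2 higher and 1 to 4 lower oxidation genes with a median of -0.06 to 0.02, 17 to 28 higher and 11 to 24 lower related genes, a difference of synthesis minus oxidation of 0.03 to 0.12, and 2188 to 3809 higher and 1976 to 3793 lower genes in all. The cause of these changes was not tested. DESeq2 lost FADS1 alone, and RLE changed no call of the set. FADS2, SCD5 and ECI2 had 0 to 35 counts per sample and were not called in the main comparison, which does not show that they were unchanged.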

Other observations

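Of 23 tested genes of uptake, binding and thioester handling, 3 were higher and 6 lower in METTL3-KO cells by edgeR's quasi-likelihood test, a called share of 39.1% that was near the 38.2% of all genes with a mean of at least 1 CPM. Of the fatty acid transport proteins, SLC27A4 was higher, at 25.9, 28.0 and 26.0 CPM in WT and 34.0, 32.9 and 37.2 CPM in METTL3-KO (log2 fold change 0.38, adjusted p = 0.00479, SE 0.0832). SLC27A3 was lower, at 18, 17.8 and 15 CPM in WT and 10.8, 11.6 and 12 CPM in METTL3-KO (-0.56, adjusted p = 0.00169, SE 0.104). Neither gene's groups overlapped. ACSF3, which activates malonate in mitochondria, was lower, with a log2 fold change of -0.47 (adjusted p = 0.000727, SE 0.0764).

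Among 25 tested genes of glycerolipid synthesis and lipid droplets, 6 were higher and 5 lower, 44% of those tested. Of all genes with a mean of at least 1 CPM, 38.2% were called. The droplet coat gene PLIN1, which is also on the list of adipocyte markers, was at 1.93, 2.12 and 2.34 CPM in WT and at 5.08, 5.55 and 5.40 CPM in METTL3-KO. Its samples were far apart, with a log2 fold change of 1.33 (adjusted p = 5.06e-05, SE 0.145). PLIN5, another droplet coat gene, was lower, at 5.57, 4.78 and 3.75 CPM in WT and 2.12, 2.46 and 2.38 CPM in METTL3-KO (log2 fold change -1.03, adjusted p = 0.000997, SE 0.175), and PLIN4 was not called (-0.05, adjusted p = 0.676, SE 0.0778). Both are named after their values were seen. The acyltransferase gene MOGAT3 was higher by 0.99 (adjusted p = 0.000107, SE 0.121), and LIPA, the lysosomal acid lipase, was lower, with a log2 fold change of -0.58 (adjusted p = 0.000319, SE 0.0825).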
